A study of Homo sapiens with 9 samples.

Results

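Small nucleolar RNAs (snoRNAs) and small Cajal body RNAs (scaRNAs) were examined in TCam-2 cells, a human line derived from a testicular seminoma. The members were the rows of the deposited tables whose symbol is SNORD, SNORA or SCARNA followed by a number and at most 1 letter, and whose counts over the 9 samples summed to 20 or more. Of 63856 listed genes, 780 carried such a symbol and 163 were members, namely 48 SNORD, 99 SNORA and 16 SCARNA rows. They had 131 different symbols, since 24 symbols stood for more than 1 row, and such rows are kept apart here by their position, host or identifier. At the limit, SNORA40 (ENSG00000253047.1) and SNORA31 (ENSG00000199477.1) had 19 counts in all and were not members, whereas SNORA80B and SNORA30 were members with 20.

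The study asked what transcriptional activation of ESX1, an X-linked homeobox gene, does to the transcriptome of these cells. Wild-type cells (WT) were unmodified. The negative control (NC) was transfected with the px335_G2P vector carrying nonspecific gRNAs. The activated cells (ESX1) were transfected together with 3 px335_G2P vectors carrying gRNAs against ESX1 and with the PB-TRE-dCas9-VPR plasmid, in which a catalytically dead Cas9 fused to an activator is expressed under a doxycycline-inducible promoter. Both transfected groups were selected with puromycin and given doxycycline, and whether NC also received the dCas9-VPR plasmid is not stated in the sources used here. Each group had 3 biological replicates. In these bulk samples, fewer cells of a kind and less RNA per cell cannot be told apart.

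Box C/D snoRNAs (SNORD) guide ribose methylation of ribosomal RNA, box H/ACA snoRNAs (SNORA) guide pseudouridylation, and scaRNAs (SCARNA) guide the same modifications on spliceosomal RNAs in Cajal bodies. A few members, such as U3, take part in the cleavage of pre-ribosomal RNA instead. Most human snoRNAs lie in introns of host genes and are released when the excised intron is debranched and trimmed, while U3 has promoters of its own.

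The sequences of the RNAs on which the results turn are shown here, from GENCODE v44 transcripts on GRCh37 matched by gene identifier. Of the 163 members, 155 had a transcript there of the same length as in the deposited table. In the lines below, capitals mark the C box (TGATGA, searched in the first 20 bases) and D box (CTGA, last 15 bases) of SNORD RNAs, and an ACA followed by 3 bases at the end of SNORA and SCARNA RNAs, as given on the RNA's own strand. A sequence without capitals had no such match in these windows. U3 (SNORD3A, GRCh38 chr17:19188016-19188714, plus strand) is shown because it held most of the counts, as the 217 bases of the shortest exon listed for it. SNORD17 (chr20:17962710-17962946, minus strand), SNORA74B (chr5:173020728-173020928, plus strand) and the rows of SNORA12 on chromosome 10 (chr10:100237156-100237302, minus strand) and chromosome 2 (chr2:55565703-55565850, plus strand) are shown because they differed between WT and NC. SNORA74 in TIMM23B (chr10:49954214-49954414, plus strand) is shown as the member most like SNORA74B among those compared, and SCARNA21 (chr17:7906122-7906260, plus strand) because it differed between the activated cells and NC.
SNORD3A: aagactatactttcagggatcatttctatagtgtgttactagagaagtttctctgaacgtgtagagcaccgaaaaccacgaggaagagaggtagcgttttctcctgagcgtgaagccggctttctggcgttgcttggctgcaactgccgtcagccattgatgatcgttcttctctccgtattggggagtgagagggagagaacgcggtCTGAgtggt
SNORD17: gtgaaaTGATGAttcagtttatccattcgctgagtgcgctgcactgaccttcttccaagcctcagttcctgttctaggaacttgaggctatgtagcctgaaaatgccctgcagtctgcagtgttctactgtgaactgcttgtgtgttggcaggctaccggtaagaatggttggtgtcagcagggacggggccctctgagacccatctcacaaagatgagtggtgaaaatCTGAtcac
SNORA74B: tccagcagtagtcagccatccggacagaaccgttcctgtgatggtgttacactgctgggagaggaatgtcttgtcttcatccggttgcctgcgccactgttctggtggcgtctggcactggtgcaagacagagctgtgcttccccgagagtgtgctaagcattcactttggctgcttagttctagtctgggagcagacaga
SNORA74 in TIMM23B: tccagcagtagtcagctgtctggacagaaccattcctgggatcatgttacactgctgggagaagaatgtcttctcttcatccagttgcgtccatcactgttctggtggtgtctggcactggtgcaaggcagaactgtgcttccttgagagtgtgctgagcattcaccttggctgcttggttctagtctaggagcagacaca
SNORA12, chromosome 10: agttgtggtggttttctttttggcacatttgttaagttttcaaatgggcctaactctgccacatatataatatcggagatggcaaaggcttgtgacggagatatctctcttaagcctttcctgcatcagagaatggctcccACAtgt
SNORA12, chromosome 2: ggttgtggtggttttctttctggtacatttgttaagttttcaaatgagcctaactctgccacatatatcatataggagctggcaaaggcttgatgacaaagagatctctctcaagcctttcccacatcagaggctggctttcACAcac
SCARNA21: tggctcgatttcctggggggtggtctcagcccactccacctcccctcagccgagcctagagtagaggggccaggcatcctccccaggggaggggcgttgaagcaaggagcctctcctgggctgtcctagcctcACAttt

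The boxes were searched in the members with such a transcript. Both the C and the D box were found in 55.6% of 45 SNORD members against 0 of 96 SNORA members, and the terminal ACA in 62.5% of SNORA members against 4.44% of SNORD members. The 14 SCARNA members held both kinds, with the terminal ACA in 64.3% and both boxes in 21.4%. Among rows with such symbols that were not members, the same searches found both boxes in 39.0% of 172 SNORD rows and the terminal ACA in 60.8% of 293 SNORA rows. A missing match says only that these letters were not in the window, since the listed ends differ between copies.

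Total counts per sample ranged from 5212804 in ESX1 replicate 3 to 10644408 in WT replicate 3. Levels are given as normalised CPM, that is, counts divided by library totals that had been adjusted with TMM factors and multiplied to a common total. ESX1 itself stood at 2.89 to 4.08 normalised CPM in the 6 control samples and at 56.98, 55.7 and 31.4 in ESX1 replicates 1, 2 and 3. All 11 seminoma markers examined had counts in every sample. Their summed level ranged from 4540 to 5426 normalised CPM in WT, 3539 to 3698 in NC and 1865 to 2254 in the activated cells. Against WT, 10 of the 11 were lower in the activated cells and 7 in NC at an adjusted p below 0.05 (edgeR). SOX17 was not lower, with means of 227 normalised CPM in WT, 251 in NC and 245 in the activated cells. Of 13 markers of other cell types, 7 had counts in every sample, while AFP, INSL3 and HSD3B2 were at 0 in every sample. The summed level ranged from 34.1 to 42.4 in WT, 54.6 to 60.1 in NC and 37.6 to 82.3 in the activated cells. COL1A1 had a log2 fold change of 2.195 (adjusted p = 0.000708, edgeR) in NC against WT. In the activated cells against WT, COL1A1 had 2.27 (adjusted p = 0.000236, edgeR). SOX2 had 1.23 (adjusted p = 0.0222, edgeR) in NC against WT. SOX9 had 1.83 (adjusted p = 0.012, edgeR) in the activated cells against NC. None of the 7 was lower at an adjusted p below 0.05 in these comparisons. The part of these marker differences in the results below was not tested.

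Overlap with exons of other genes limited which of these RNAs were counted. The authors counted read pairs without the option that lets a pair count for 2 genes, so a pair lying on exons of 2 listed genes was left out. Of the 725 rows with such symbols on primary chromosomes, 144 had all of their bases inside listed exons of another gene, and 144 of these 144 had 0 counts. Of the 531 rows that shared no base with another exon, 213 (40.1%) had 0 counts. The covered rows shared an exon on the same strand in 141 cases, and 9 were covered only by other snoRNA or scaRNA rows. A 0 in these rows therefore gives no information on the RNA.

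**Figure D1:**
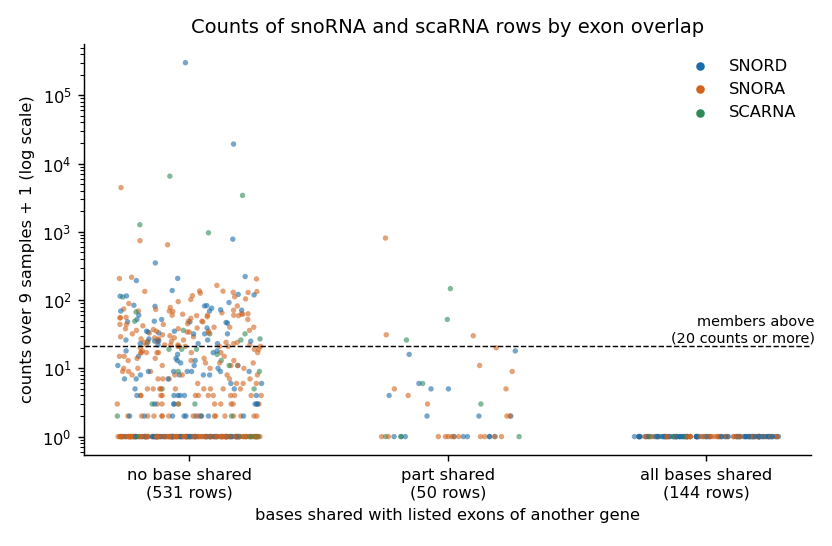
Counts summed over the 9 samples, plus 1, on a log scale for each SNORD, SNORA and SCARNA row on primary chromosomes, grouped by how many of its bases lie in listed exons of another gene. All 144 rows whose bases were all shared sit at 0 counts, while the 531 rows that shared none spread up to the 300501 counts of SNORD3A, and the dashed line marks the 20 counts that define members.

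Well-known RNAs were among the covered rows. U8 (SNORD118), needed for maturation of large-subunit rRNA, lay inside an exon of TMEM107. U17a (SNORA73A) lay inside an exon of SNHG3, SNORD14B inside one of RPS13, SNORD14C and SNORD14D inside exons of HSPA8, and both SNORD22 rows inside exons of SNHG1. U13 (SNORD13) lay inside an exon of TTI2 on the opposite strand, and pairs on both genes were set aside because strand was not used in counting. Both rows of SCARNA10 overlapped each other and had 0 counts, and the larger of both SCARNA2 rows had 2 counts. Both SNORD3D rows, further copies of U3, were likewise at 0.

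Of the 163 members, 157 shared no base with an exon of another gene and 6 shared a part. SNORA53 shared 26 bases (10.4%) with an exon of its host SLC25A3, and SCARNA13 shared 127 bases (46.2%) with an exon of GLRX5 on the opposite strand. The others were SCARNA15, whose listed length of 4325 bases spans exons of SNHG21 and FSD2, SNORA2C with MIR1291, SNORA70 with a gene known by a clone name, and SCARNA9 with 2 other snoRNA rows. Reads of unspliced host RNA can still count for a member inside an intron. The median distance of the 126 members with a host on the same strand to the nearest host exon was 239.5 bases, and 51 of them lay within 150 bases of it, the length of 1 read.

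Counts were concentrated in members of 200 bases or more, and among these chiefly in SNORD3A. The libraries were made from total RNA and read as pairs of 150 bases, and no step for small RNAs is named in the sources used here. The 39 members under 100 bases held 2576 of 348699 member counts together, and the 16 members of 200 bases or more held 337439. Of the latter counts, SNORD3A alone held 300501 and SNORD17 held 19291, while SCARNA15, the longest row at 4325 bases, had 51. The minimum of 20 counts sets a floor per kilobase that is higher for shorter RNAs, so the classes are not compared by their level. Levels of different members are compared only per kilobase here, and how well RNAs of each length were captured was not tested.

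**Figure D2:**
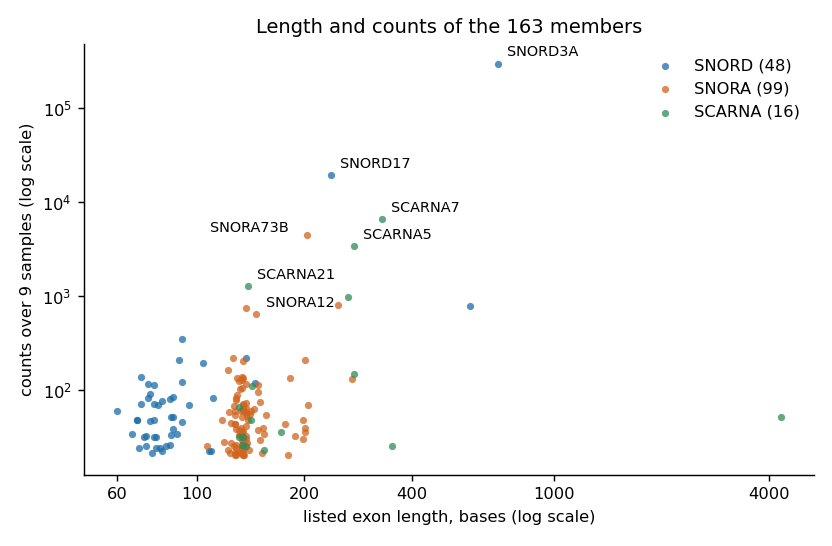
Counts summed over 9 samples against the listed exon length in bases, both on log scales, for the 163 members coloured by class. The 16 members of 200 bases or more held 337439 of the 348699 counts, with 300501 on SNORD3A alone. SNORD3A, SNORD17, SCARNA7 and SNORA73B stand highest.

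U3, the box C/D RNA that directs the early cleavages of the small-subunit precursor, was the most abundant member in every sample. SNORD3A had 33422, 28161 and 35349 counts in WT, 40967, 24070 and 26281 in NC, and 46151, 37036 and 29064 in the activated cells. It made up 80.5% to 89.1% of the member counts of a sample. In normalised CPM the level was 3815 ± 252 in WT, 3167 ± 936 in NC and 4591 ± 825 in the activated cells (each SD, n = 3). The groups overlapped, with NC replicate 1 above all WT samples and the other NC samples below them. The log2 fold change was 0.27 (SE 0.154, adjusted p = 0.209, edgeR) against WT, 0.54 (SE 0.154, adjusted p = 0.0593, edgeR) against NC, and -0.27 (SE 0.154, adjusted p = 0.247, edgeR) for NC against WT. None of these passed the threshold. SNORD3C, a U3 copy listed on the opposite strand, had log2 fold changes of 0.22, 0.50 and -0.28 in the same order, none past the threshold, at 71 to 143 counts a sample. U3 copies are nearly identical, so reads cannot be assigned to a copy with certainty.

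After U3, SNORD17, which guides methylation of large-subunit rRNA and lies in an intron of SNX5, stood highest per kilobase at 1010 normalised CPM per kb. It was followed by SNORA73B (U17b, for small-subunit rRNA processing) at 276.9, SCARNA7 (U90) at 250.9, SCARNA5 (U87) at 155.4 and SCARNA21 at 116.4. SNORA5C, SNORA12 on chromosome 10, SNORD12B and SCARNA6 (U88) stood between 45.8 and 68.7, and SNORA53, SNORD12C, SNORD63 (ENSG00000222937.1), SNORA28 and SCARNA3 between 9.55 and 39.9. These are orders of means over 9 samples and are descriptions of the libraries.

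All members together took 0.378% to 0.422% of the library total in WT, 0.339% to 0.516% in NC and 0.439% to 0.626% in the activated cells. The activated cells lay above WT, and NC overlapped both. Without SNORD3A the sum was 501 to 574 normalised CPM in WT, 626 to 676 in NC and 582 to 670 in the activated cells, so WT lay below both transfected groups. Without SNORD17 as well it was 344 to 374 in WT, 332 to 363 in NC and 376 to 415 in the activated cells. The gap between WT and NC was not seen without SNORD17, and the remaining sum was highest in the activated cells, by a narrow margin over WT replicate 1. No test was run on these sums.

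Of the 163 members, 56 had enough counts to be tested, 22 SNORD, 28 SNORA and 6 SCARNA. To be called, a member had to change at least 2-fold with an adjusted p under 0.05, where the adjustment ran over all 18452 tested genes. Between the activated cells and WT, 1 of 56 tested members was called (1 higher, 0 lower), against 11.5% of all tested genes (6.78% higher, 4.77% lower). Between the activated cells and NC, 0 of 56 were called by edgeR, against 1.78% of all tested genes (1.08% higher, 0.699% lower), and DESeq2 called 0 as well, while 8 (14.3%) had an unadjusted p below 0.05, as did 2953 of all 18452 tested genes. Between NC and WT, 3 of 56 were called (1 higher, 2 lower), against 5.27% of all tested genes (3.12% higher, 2.15% lower). At an adjusted p below 0.05 with no minimum fold, the counts were 3, 3 and 4, against 28.8%, 4.25% and 17.1% of all genes. Unadjusted, 5 and 13 members lay below 0.05 in the comparisons of activated cells and of NC with WT (8.93% and 23.2%), against 39.7% and 31.1% of all genes. Each pair of these comparisons shares a group of samples, so they are not independent.

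The median log2 fold change of the tested members was -0.02 for the activated cells compared with WT, 0.09 compared with NC and -0.15 between NC and WT, where all tested genes had 0.01, 0.00 and 0.01. The members were measured with less precision than most genes. Their median level was 1.55 normalised CPM against 12 for all tested genes, and the median SE of their log2 fold change was 0.51 against 0.23 in the comparison with WT. The part of this lower precision in the number of calls was not tested.

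**Figure D3:**
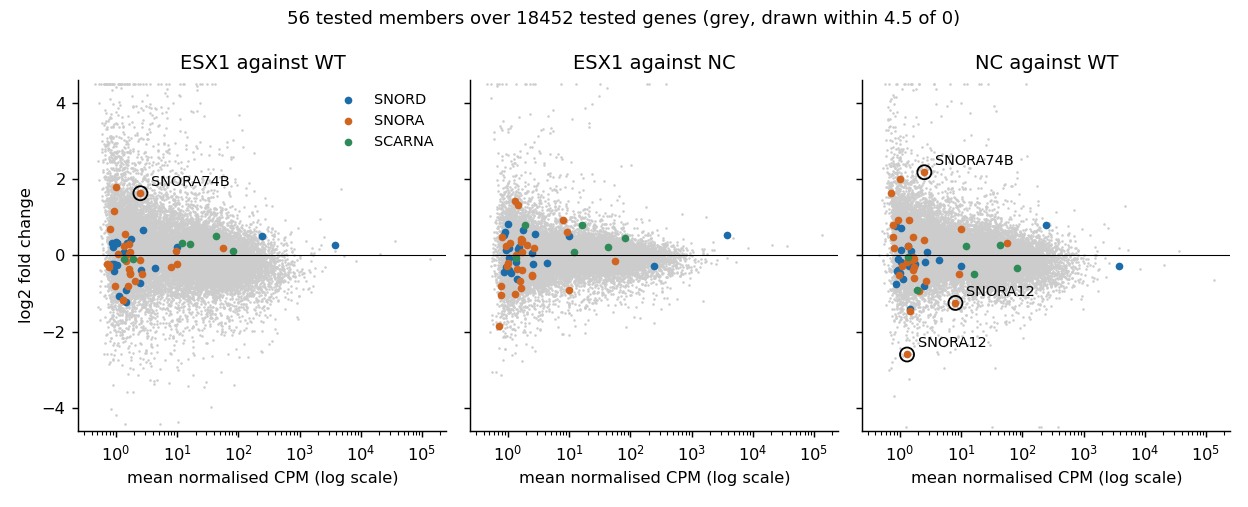
Log2 fold change against mean normalised CPM (log scale) in the 3 comparisons, with all 18452 tested genes in grey (drawn within 4.5 of 0), the 56 tested members coloured by class and called members circled. SNORA74B is circled against WT in both transfected groups, the 2 SNORA12 rows are circled below 0 for NC against WT, and no member is circled for the activated cells against NC.

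SNORA74B (ENSG00000212402.1), an H/ACA RNA of the U19 family in an intron of ATP6V0E1, was the member called in both comparisons with WT. It had 6, 8 and 8 counts in WT, 40, 52 and 22 in NC, and 46, 13 and 11 in the activated cells. The low-count filter kept this row for the test through its counts in the transfected groups, so its calls are in part set by that filter. All 6 transfected samples exceeded all WT samples, and ESX1 replicate 1 stood far above the other activated samples. The log2 fold change was 2.18 (SE 0.519, adjusted p = 0.00806, edgeR) for NC against WT and 1.63 (SE 0.537, adjusted p = 0.0303, edgeR) for the activated cells against WT. Between the activated cells and NC it was -0.55 (adjusted p = 0.620, edgeR). The call for the activated cells was lost without ESX1 replicate 1, at 0.88 (adjusted p = 0.280), and also without WT replicate 1 (1.45, adjusted p = 0.0829) or WT replicate 3 (1.59, adjusted p = 0.0742). The host ATP6V0E1 had log2 fold changes of -0.22 (adjusted p = 0.282) for NC and 0.06 (adjusted p = 0.763) for the activated cells against WT, from edgeR's fit.

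The SNORA74 family was then summed, a choice made after its values were seen. The 5 further member rows, SNORA74A in SNHG4 and 4 rows named SNORA74, had 5, 7 and 13 counts together in WT, 21, 33 and 22 in NC, and 26, 30 and 19 in the activated cells. In normalised CPM the sums were 0.97 ± 0.408 (SD, n = 3), 2.65 ± 0.768 (SD, n = 3) and 3.06 ± 0.438 (SD, n = 3), and none of these rows had enough counts for a test. These rows are members because their counts reached 20 in all, which the copies in TIMM23B and COX10 did with 1 count each in WT, so the low sum in WT is in part set by that rule. Of the 3 rows named SNORA74 that are not members, 1 had 2, 2 and 2 counts in WT, 2, 0 and 1 in NC, and 0, 4 and 1 in the activated cells, and the others had 1 and 0 counts in all. The copy in TIMM23B had 1, 0 and 0 counts in WT, 7, 8 and 2 in NC, and 6, 7 and 8 in the activated cells. The copy in TIMM23 had 1, 4 and 3 in WT, 5, 7 and 7 in NC, and 2, 5 and 1 in the activated cells, which overlapped WT. The copy on chromosome 12 had 0, 2 and 2, then 5, 1 and 9, then 5, 8 and 2 in the same order. The copy in TIMM23B matched SNORA74B in 177 of 201 aligned bases (88.1%), the copy in COX10 in 77.0% and SNORA74A in 67.3%. The copy in TIMM23 was not aligned. Whether reads of 1 copy were counted for another was not tested.

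SNORA12, an H/ACA RNA, moved the other way between the controls. The row on chromosome 10 (ENSG00000212464.1), in an intron of CWF19L1, had 112, 65 and 106 counts in WT, 36, 45 and 52 in NC, and 75, 117 and 37 in the activated cells. All NC samples lay below all others in normalised CPM, at 4.62 ± 0.801 (SD, n = 3) against 10.9 ± 1.38 (SD, n = 3) in WT and 8.74 ± 2.66 (SD, n = 3) in the activated cells. The log2 fold change was -1.24 (SE 0.255, adjusted p = 0.00291, edgeR) for NC against WT, 0.94 (SE 0.258, adjusted p = 0.0488, edgeR) for the activated cells against NC, and -0.31 (adjusted p = 0.370, edgeR) for the activated cells against WT. The rise over NC stayed under 2-fold, but passed it without ESX1 replicate 1 (1.04, adjusted p = 0.0471) or ESX1 replicate 3 (1.08, adjusted p = 0.0496). Its host CWF19L1 had log2 fold changes of -0.25, 0.18 and -0.06 in the same order, none past the threshold.

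The row on chromosome 2 (ENSG00000212175.1), 85.8% identical to it and inside PPP4R3B on the opposite strand, had 21, 27 and 10 counts in WT, 1, 5 and 5 in NC, and 11, 4 and 10 in the activated cells. WT and NC did not overlap. The log2 fold change for NC against WT was -2.59 (SE 0.702, adjusted p = 0.0168, edgeR), and the call was lost without WT replicate 2 (-2.09, adjusted p = 0.105) or NC replicate 1 (-2.14, adjusted p = 0.0827). In a fit of the WT and NC samples alone this row was not kept by the low-count filter, and SNORA17 (2.03, adjusted p = 0.0289, edgeR) was called, so that the count stayed at 3. Reads of unspliced PPP4R3B cannot be told apart from this row, as strand was not used, and PPP4R3B had a log2 fold change of -0.36 (adjusted p = 0.0525, edgeR). The third row, on chromosome 8, had too few counts for a test, with 10, 1 and 9 counts in WT, 7, 6 and 6 in NC, and 6, 4 and 5 in the activated cells.

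**Figure D4:**
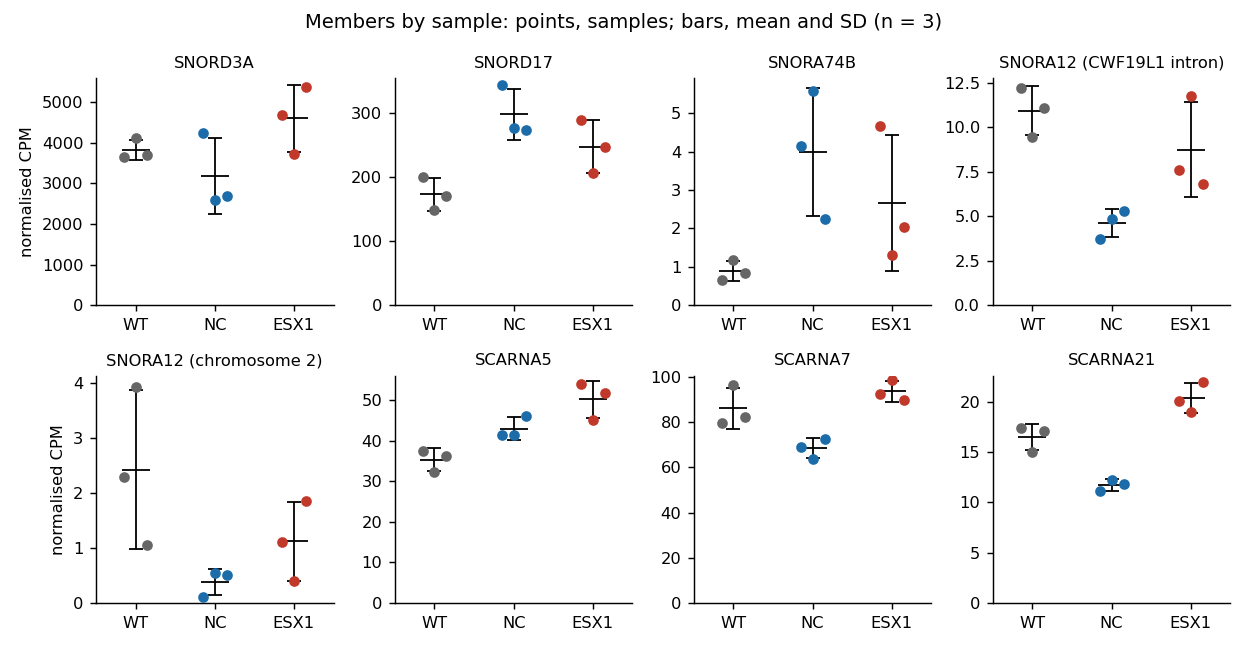
Normalised CPM in each sample of WT, NC and activated (ESX1) cells for 8 members, with points for samples and bars for the mean and SD (n = 3). SNORA74B and SNORD17 were lowest in WT, both SNORA12 rows, SCARNA7 and SCARNA21 had their lowest mean in NC, SCARNA5 its highest mean in the activated cells, and SNORD3A overlapped between groups.

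SNORD17 had 1834, 1019 and 1625 counts in WT, 3317, 2585 and 2680 in NC, and 2846, 2048 and 1337 in the activated cells. In normalised CPM these were 173 ± 25.99 (SD, n = 3), 298 ± 39.8 (SD, n = 3) and 247 ± 41.3 (SD, n = 3), and all transfected samples exceeded all WT samples. The log2 fold change was 0.78 (SE 0.143, adjusted p = 0.00128, edgeR) for NC and 0.52 (SE 0.143, adjusted p = 0.0121, edgeR) for the activated cells against WT, both under 2-fold. The host SNX5 had -0.25 and -0.20, neither past the threshold.

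Among the scaRNAs, SCARNA5, a guide for the U5 spliceosomal RNA in ATG16L1, had 37.6, 32.2 and 36.4 normalised CPM in WT, 41.4, 41.5 and 46.2 in NC, and 53.9, 45.2 and 51.7 in the activated cells. The activated cells lay above WT without overlap, with a log2 fold change of 0.50 (SE 0.13, adjusted p = 0.00773, edgeR). NC also lay above WT without overlap, and NC overlapped the activated cells. With single samples left out, log2 fold changes were 0.21 to 0.32 for NC against WT. They were 0.16 to 0.29 for the activated cells against NC. SCARNA6, in the same host and of a related kind, had 0.33 (adjusted p = 0.223, edgeR), and the host ATG16L1 0.19 (adjusted p = 0.295, edgeR).

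SCARNA21, a guide for the U12 spliceosomal RNA in an intron of CHD3, had 17.4, 15.01 and 17.03 normalised CPM in WT, 11.1, 12.2 and 11.8 in NC, and 20.1, 19.0 and 22.0 in the activated cells. The 3 groups did not overlap. The log2 fold change against NC was 0.79 (SE 0.166, adjusted p = 0.00932, edgeR), against WT 0.30 (adjusted p = 0.187, edgeR), and for NC against WT -0.49 (adjusted p = 0.05001, edgeR). SCARNA7, a guide for the U1 spliceosomal RNA in KPNA4, had 79.8, 96.6 and 82.4 in WT, 68.8, 63.8 and 72.7 in NC, and 92.6, 98.7 and 89.8 in the activated cells, with 0.45 (SE 0.114, adjusted p = 0.0294, edgeR) against NC and 0.12 (adjusted p = 0.457, edgeR) against WT. For both, NC was the lowest group. SCARNA13, in part on a GLRX5 exon, had 0.80 against NC (adjusted p = 0.410, edgeR) on 7 to 25 counts a sample.

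The other well-known members did not pass the test. SNORA73B had 49.6 ± 13.8 normalised CPM in WT, 62.5 ± 6.81 in NC and 57.4 ± 18.6 in the activated cells (each SD, n = 3), with log2 fold changes of 0.33 for NC and 0.19 for the activated cells against WT (adjusted p = 0.280 and 0.516, edgeR). SNORA53 had 0.70 for NC against WT (adjusted p = 0.0668, edgeR) and -0.91 for the activated cells against NC (adjusted p = 0.0559, edgeR), and passed between the controls without WT replicate 1 (1.06, adjusted p = 0.00697). Its counts were 112, 35 and 77 in WT, 121, 127 and 153 in NC, and 74, 66 and 44 in the activated cells. SNORD12B and SNORD12C, both in ZFAS1, had log2 fold changes between -0.39 and -0.13 in the 3 comparisons, and SNORD14A, SNORD63 (ENSG00000222937.1), SNORA5C, SNORA28 and SCARNA3 between -0.67 and 0.66, none past the threshold.

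Calls at this depth moved with single libraries. Without WT replicate 1, SNORA53 and SNORA79 were called as well between NC and WT, 5 in all. Without ESX1 replicate 1, SNORD15B (-1.84) and SNORA17 (2.28) were called against WT in place of SNORA74B, and without ESX1 replicate 2 SNORD93 (-2.57) was called beside it. These names were chosen after their values were seen. Without WT replicate 1 or WT replicate 3, 0 members were called against WT.

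Members inside host genes were set beside their hosts. The 126 members with a host on the same strand lay in 106 genes, of which 15 held 2 or more, and 37 members had none. SNHG17 held SNORA71A to SNORA71D, GNL3 held 2 SNORD19 rows and SNORD69, KANSL2 held SNORA2A, SNORA2B and SNORA2C, and RPS12 held SNORD100, SNORD101 and SNORA33. Across the 126 members the log2 level of a member and its host had a Pearson correlation of 0.14 and a Spearman correlation of 0.18. For the 48 tested members with a tested host, in 41 hosts, Pearson correlations of the log2 fold changes were 0.38 between the activated cells and WT, 0.34 between the activated cells and NC, and 0.15 between NC and WT. Points share libraries, several share a host, and pairs of unspliced host RNA can enter the member's count, so these values are descriptions.

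**Figure D5:**
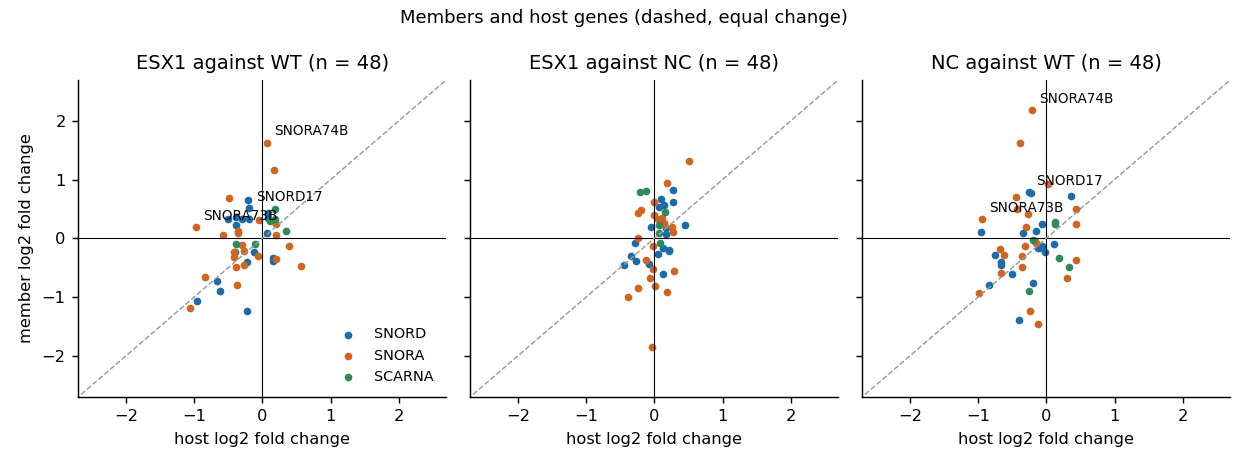
Log2 fold change of a member against that of its host gene for 48 tested members in each comparison, with equal change dashed. Points lie loosely around the dashed line against WT (Pearson 0.38), SNORA74B and SNORD17 lie above 0 beside hosts close to 0, and SNORA73B lies above 0 beside SNHG3 at -0.97 and -0.95.

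SNHG3, whose intron holds SNORA73B, was lower in both transfected groups than in WT, by log2 fold changes of -0.97 (adjusted p = 4.86e-06, edgeR) in the activated cells and -0.95 (adjusted p = 2.77e-05, edgeR) in NC. SNORA73B had 0.19 and 0.33 in the same comparisons. RCC1, whose span also holds SNORA73B, had -0.22 and -0.05, neither past the threshold. SNORD17 and SNORA74A likewise lie in a second gene each, OVOL2 and MATR3, and were set beside SNX5 and SNHG4 here. SNORD14A had 0.10 for NC against WT beside -0.96 (adjusted p = 2.77e-05, edgeR) for RPS13. For NC against WT, other members had values near those of hosts that passed an adjusted p of 0.05, although none of these members passed the test. SNORA26 had -0.93 beside DANCR at -0.99, and the 3 members in RPS12 lay between -0.60 and -0.40 beside -0.66. In the activated cells the counts of these 3 overlapped those in WT. They were 14, 16 and 4 against 15, 5 and 6 for SNORD101, and 11, 10 and 6 against 11, 9 and 3 for SNORD100. SNORA33 had 14, 18 and 7 against 12, 21 and 21. The difference between member and host was not tested.

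The proteins of these particles were examined as lists. Of 15 tested genes for the core and assembly of C/D particles, 0 were called higher and 1 lower in the activated cells against WT, beside 4.77% of all tested genes called lower. At an adjusted p below 0.05, 6 of the 15 were lower, against 15.8% of all tested genes, and the median was -0.20 against 0.01 for all tested genes. The called gene was RRP9, which encodes a protein specific to the U3 particle, with a log2 fold change of -1.09 (SE 0.143, adjusted p = 2.8e-05, edgeR) against WT, -0.64 (adjusted p = 0.0148, edgeR) against NC and -0.45 (adjusted p = 0.0343, edgeR) for NC against WT. It had 60.2 ± 1.92 normalised CPM in WT, 44.1 ± 4.27 in NC and 28.1 ± 4.97 in the activated cells (each SD, n = 3), without overlap, while U3 itself did not pass. NOP56, a core protein, had -0.56 (adjusted p = 0.00131, edgeR) in the activated cells and -0.46 (adjusted p = 0.00883, edgeR) in NC against WT. The methyltransferase FBL had -0.03, NOP58 -0.20 and SNU13 -0.13 against WT, none past the threshold.

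For H/ACA particles, 0 of 9 tested genes were called in any comparison, and 4 were lower at an adjusted p below 0.05 in each transfected group against WT, where 15.8% of all tested genes were lower in the activated cells and 10.3% in NC. NHP2 had -0.76 in the activated cells and -0.53 in NC, and NOP10 -0.54 and -0.64. The pseudouridine synthase DKC1 had -0.29 and -0.06, and GAR1 -0.03 and 0.46, neither past the threshold. Of 10 tested genes for the scaffold of Cajal bodies and nucleoli, 0 were called in any comparison, beside the same shares of all tested genes. At an adjusted p below 0.05, 2 were lower in the activated cells against WT, the nucleolar protein NPM1 (-0.67, adjusted p = 0.000421, edgeR) and GEMIN2 of the SMN complex (-0.79, adjusted p = 0.00331, edgeR), and 1 in NC, NPM1 (-0.72, adjusted p = 0.000519, edgeR). COIL, the scaffold of the Cajal body, had 0.07 and WRAP53, which binds scaRNAs, -0.29 in the activated cells against WT, neither past the threshold.

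Of 21 tested noncoding host genes, 1 was called, SNHG4, host of SNORA74A. It had 1.62 (adjusted p = 0.022, edgeR) in the activated cells against WT, on 13, 7 and 3 counts in WT. In the same comparison 11.5% of all tested genes were called (6.78% higher). At an adjusted p below 0.05, 3 were higher and 3 lower in that comparison, and 0 were higher and 5 lower in NC against WT. Of all tested genes, 12.9% were higher and 15.8% lower in the former, and 6.82% and 10.3% in the latter. In the activated cells against NC, 1 was higher and 0 lower, against 1.88% and 2.37% of all tested genes. Of the other small structural RNAs, 4 were tested and 0 called. RN7SL2, of the signal recognition particle, had log2 fold changes of 0.03 against WT and 0.28 against NC (adjusted p = 0.880 and 0.184, edgeR). RMRP, RPPH1, RN7SK and RN7SL1 were listed at 0 in every sample. Whether these 0 counts come from the RNA or from the counting was not tested.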

How the data were processed

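Total RNA-seq values of 9 TCam-2 samples (3 each of WT, NC and activated cells) were taken from the deposited tables, with groups and replicate numbers from the sample titles. Libraries were prepared with a stranded total RNA kit after ribosomal RNA depletion. The authors aligned read pairs to GRCh38 with HISAT2 2.0.5 and deposited raw counts per gene from featureCounts without strand, multi-mapping or multi-overlap options, version 1.5.2 with GENCODE v26 per the file headers and version 1.6.5 per the labels. They also deposited log2 values normalized with DESeq2, whose transformation is not given in the sources used here. Those served only for an alternative.

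The count tests ran under R 4.3.3 with these packages, edgeR at version 4.0.16, limma at 3.58.1, DESeq2 at 1.42.0. Genes kept by filterByExpr (18452) were scaled by TMM and fitted with 3 group means by quasi-likelihood in edgeR. P-values were adjusted by the Benjamini-Hochberg method, and a call required a change of 2-fold or more beside an adjusted p under 0.05. The test was checked on simulated counts. A host is a gene whose span holds the member on the same strand, and exon overlap came from the exon columns of the count table. Per-kilobase levels use the listed exon length. Identity is the share of identical columns in a global alignment. Total counts of 5212804 to 10644408 set the precision. P-values weigh a difference against the spread within the 3 groups, estimated over all 9 samples.

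Members and gene lists were chosen with earlier results of these data known. Named members were those called, those with an adjusted p below 0.05, the 5 highest per kilobase of each class, and U3, U8, U13, SNORD22, SNORD14, SNORA73 and well-known SCARNA RNAs. Others named were chosen after their values were seen. Same-numbered replicates showed correlations of their deviations from the group means of 0.19 or less, and the numbers were not treated as pairs. Alternatives were other scaling factors, filters, tools and sample sets, the replicate block, thinned libraries, omitted RNAs and each sample left out.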

Additional observations from a re-analysis of the deposited data

How the results depend on the processing

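Calls of members were few and moved with the filter, the depth and the tool. Against WT, the count of 1 became 2 with no filter beyond 1 count (SNORA74B and the SNORA74 copy in TIMM23B), 3 with no minimum fold, and 0 with at least 10 counts in every sample, with libraries thinned to the smallest total, or with limma on the deposited log2 values. Leaving out single samples gave 0 to 2. The copy in TIMM23B had 1, 0 and 0 counts in WT and is a member only through its counts in the transfected groups. Its call is therefore in part set by the rule for members. Against NC, the count of 0 became 1 (SNORA12 on chromosome 10) with thinned libraries and 3 with no minimum fold, and leaving out single samples gave 0 to 1. For NC against WT, the count of 3 became 1 with at least 10 counts in every sample and 0 with limma, and leaving out single samples gave 2 to 5. In limma's fit on the deposited values SNORA74B (0.92) and both SNORA12 rows (-0.86 and -0.84) kept an adjusted p below 0.05 with a fold under 2. Under thinning SNORA74B had 1.56 (adjusted p = 0.0522, edgeR) against WT. The cause of these changes was not tested, beyond the smaller number of members that a stricter filter keeps.

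The median log2 fold change of tested members against WT (-0.02) became 0.0751 with upper-quartile factors, 0.172 with at least 10 counts, 0.0770 in a fit of the 6 samples compared, 0.138 thinned and 0.0478 over members that share no base with another exon, and lay between -0.144 and 0.0611 when single samples were left out. Against NC (0.09) it became 0.00284 with no filter, 0.200 with at least 10 counts and 0.327 thinned, ranging from -0.0550 to 0.157. For NC against WT (-0.15) it became -0.0604 with upper-quartile factors, -0.0939 with no filter and -0.0789 with limma, ranging from -0.148 to 0.0126. The median thus had no stable sign. The correlation with host changes against WT (0.38) became -0.000499 with at least 10 counts and 0.142 thinned, ranging from 0.297 to 0.452 over single samples left out. Against NC (0.34) it became -0.214, -0.0955 and, with limma, 0.236, ranging from 0.141 to 0.519. For NC against WT (0.15) it became -0.141, 0.0481 and 0.0694, ranging from 0.0866 to 0.202. With mitochondrial genes left out of the total, the mean share of members was 0.486% in WT and 0.659% in the activated cells. Leaving SNORD3A out of the totals was added after seeing the data and changed no call.

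Deviations of same-numbered samples from their group means had correlations between -0.03 and 0.19 across genes. Differently numbered samples were not compared in this way, and the labels do not say whether the numbers mark a shared batch. The numbers are those of the sample titles, and the sample descriptions number some of the activated samples differently. The block and these correlations therefore cannot decide whether there was a shared batch. With the replicate number as a block, 1, 0 and 4 members were called, SNORD6 (-1.58) being the added call for NC against WT, and the medians were -0.02, 0.09 and -0.20.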
